A study of Mus musculus with 20 samples.

Results

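The transcripts described here are 8 protein-coding genes of the smooth muscle contractile apparatus, Myh11, Actg2, Tagln, Acta2, Cnn1, Des, Mylk and Myl9, measured in the RNA of cauda epididymosomes. They were picked by name and transcript type, but with earlier results of these data known, so the choice was not blind. All 8 were found among the 18357 protein-coding rows of one deposited table and among the 16649 of the other. Cauda epididymosomes are the extracellular vesicles of the last segment of the epididymis, here the pellet of a 120000 rcf ultracentrifugation for 2 h of medium from which sperm had been removed. The donors were male mice of 9 months of a strain the labels do not name. The 5 Control males (animals 3, 5, 7, 9 and 11) grew up in litters left untouched. The 5 MSUS males (animals 2, 4, 6, 8 and 14) came from litters separated from the dam at unpredictable times for 3 h per day over the first 14 days of life, while the dams were stressed by forced swimming or restraint. Whether some animals were littermates is not in the labels, and p-values reflect the spread among these animals only. Each of the 10 small RNA libraries was sequenced in 2 runs, which gives 20 samples in 2 tables. The one labelled with size selection is called the first table below and the one labelled without it the second table.

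In smooth muscle, myosin filaments pull on actin filaments once myosin light chain kinase, activated by calcium signalling, has phosphorylated the regulatory light chain. Calponin, transgelin, tropomyosin and caldesmon bind the actin filaments, and desmin filaments tie the machinery to the cell's dense bodies. Serum response factor and its partner myocardin switch these genes on together through the CArG box, and the wall of the cauda epididymidis is rich in smooth muscle that empties the duct. A small RNA library reads fragments of such mRNAs, and in bulk material fewer source cells, or vesicles from them, and less RNA from each cannot be told apart.

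Contents and labels of the tables were at odds, since miRNAs made up only 10.9 to 17.0% of the first and 52.4 to 72.2% of the second, so directions between tables refer to the labels only. Library totals were 1872084 to 3647956 counts in the first and 215231 to 871461 in the second. The tRNA share of the first ran from 14.5 to 66.0% of counts, and 3 libraries, Control 9, Control 11 and MSUS 14, had the lowest shares. Of the marker lists, vesicle transcripts were present (5 of 5 tested, Pdcd6ip leading at 87.5 CPM), and Akr1b7 led the epididymal epithelium at 13564 CPM. That level does not stand for the whole epithelial list. Of its 21 genes, 10 were tested in the first table, and Lcn9 had no protein-coding row. The other untested genes were near the floor, with group means of at most 2.59 CPM (Atp6v1b1, Control group). CPM here are an RNA's counts relative to its library's total, after TMM scaling of that total, which sets libraries to a common level for most features.

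The contractile transcripts were a small and well detected fraction of the first table. Their summed counts made up 0.170% (95% exact binomial interval 0.157 to 0.183%, counting error only, as for all such intervals) of protein-coding counts in Control 3 and 0.611% (0.582 to 0.640%) in MSUS 6, the lowest and the highest of the 10 libraries. Compared per kb of exon, Acta2, the smooth muscle α-actin, had the highest level at 89.2 ± 37.3 CPM per kb (SD over 10 libraries). Tagln, which codes for transgelin, followed at 39.6 ± 17.5 CPM per kb and Myh11, the smooth muscle myosin heavy chain, at 25.9 ± 12.8. Each of these 3 stood above the next in 10 of 10 libraries. Mylk at 12.9 ± 4.22 and Actg2 at 12.8 ± 6.94 CPM per kb did not differ beyond their spread, as Mylk was above Actg2 in 6 of 10 libraries. Actg2 was above Myl9 (9.94 ± 4.35) in 7 of 10, Myl9 above Cnn1 (7.65 ± 4.57) in 8 of 10 and Cnn1 above Des (6.74 ± 2.09) in 5 of 10. On this scale 90.1% of 17580 protein-coding genes lay below Des and 99.6% below Acta2.

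MSUS libraries had the higher mean for 8 of 8 contractile transcripts in the first table, and 0 of 8 passed the test. Among all 10998 features tested, 49.8% had a positive log2 difference of MSUS minus Control, and 0% passed edgeR's quasi-likelihood test at an adjusted p of 0.05. The median log2 difference of the 8 was +0.59, and that of all features −0.001. At an unadjusted p under 0.05 and higher in MSUS were 1 of 8 (Myh11) and 3.46% of all features. The groups did not overlap for 0 of 8 transcripts and for 0.864% of features. The count of positive differences depended on the scaling: with library size only, in place of TMM, Des (−0.16) and Mylk (−0.31) turned negative, 6 of 8 stayed positive and their median was +0.05. That scaling moved the median of all features to −0.58, and 8 of 8 still lay above it.

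**Figure D1:**
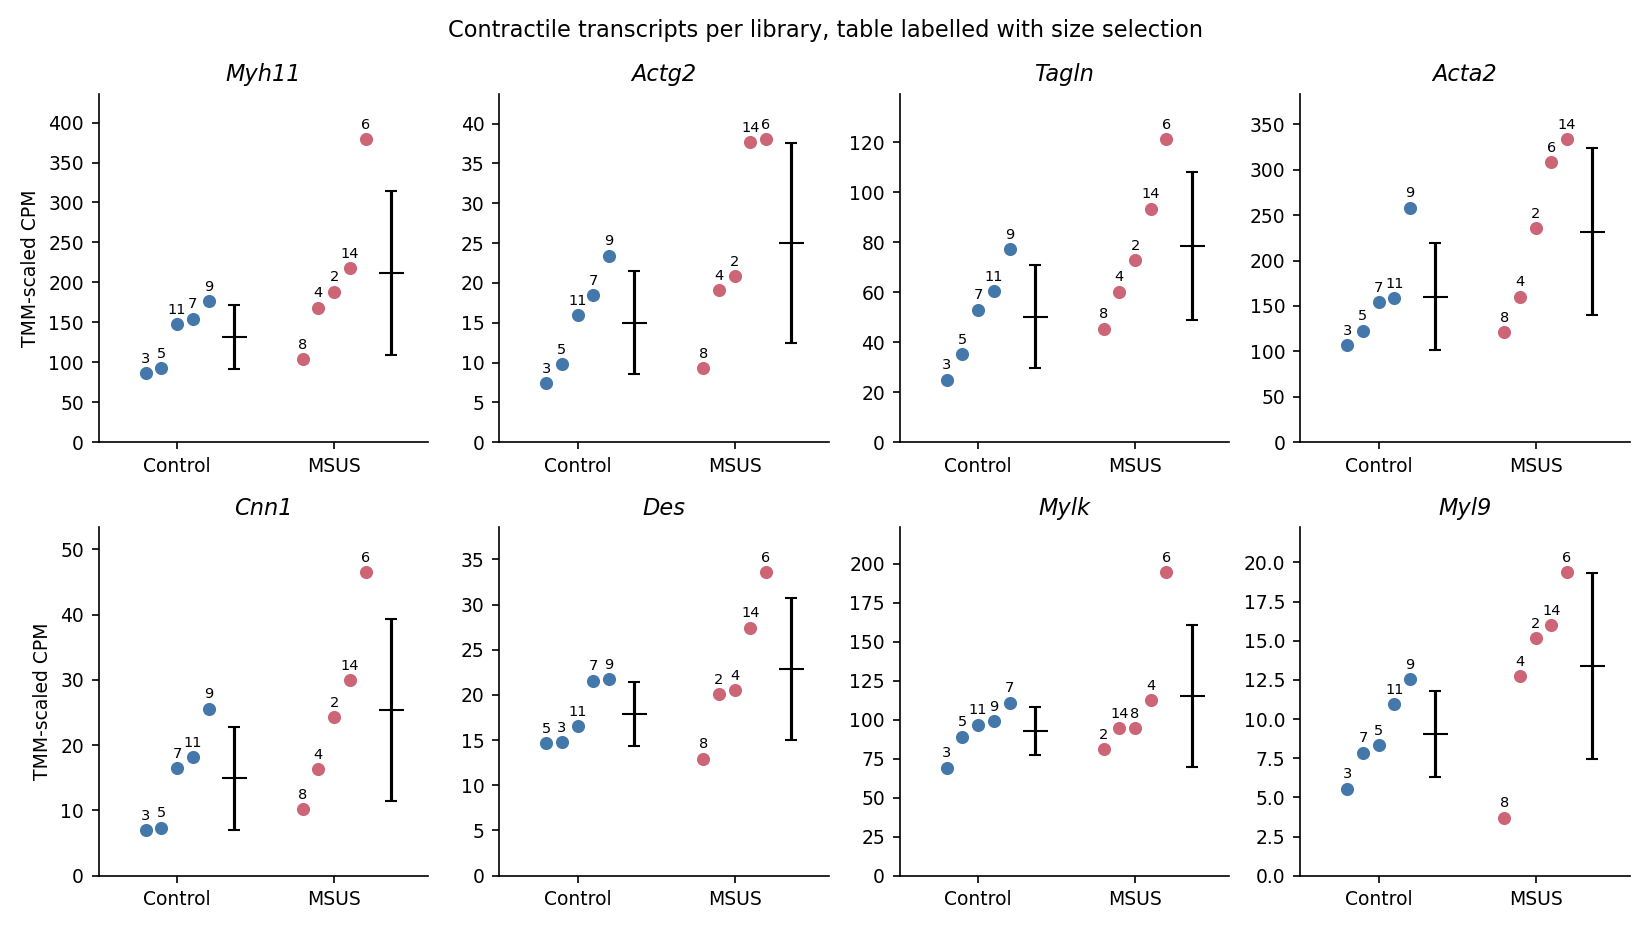
Level of each contractile transcript (vertical axes, TMM-scaled CPM, from 0) in the 5 Control and 5 MSUS libraries of the first table, each point marked with its animal number, with group mean and SD at the right. MSUS 6 or MSUS 14 lies highest in every panel and MSUS 8 is the lowest MSUS library in all but Mylk, so the groups overlap throughout.

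For the myosin motor and the proteins that switch it on, MSUS 6 was the highest library. Myh11, whose protein forms the thick filaments, stood at 86.4, 92.5, 154, 176 and 148 CPM in Control 3, 5, 7, 9 and 11 and at 188, 169, 379, 104 and 218 CPM in MSUS 2, 4, 6, 8 and 14. Thus 3 of 5 MSUS libraries were above every Control library and MSUS 8 was among the low ones. The means were 131 ± 39.8 and 211 ± 103 CPM (SD, n = 5 each), a log2 difference of +0.68 (SE 0.30, edgeR unadjusted p = 0.0429, adjusted p = 0.858) that became +0.37 without MSUS 6. Mylk, the kinase that phosphorylates the light chain, stood at 69.3, 89.1, 111, 98.9 and 96.8 CPM in Control and at 81.2, 113, 194, 94.4 and 94.4 CPM in MSUS libraries. One library, MSUS 6, was far above the other 9, which all lay between 69.3 and 113 CPM. The log2 difference of Mylk was +0.30 (SE 0.21, edgeR adjusted p = 0.905), and +0.04 without MSUS 6. Myl9, the regulatory light chain that this kinase acts on, stood at 5.54, 8.32, 7.85, 12.55 and 10.96 CPM in Control and at 15.2, 12.7, 19.4, 3.70 and 16.0 CPM in MSUS libraries. Here 4 of 5 MSUS libraries were above every Control library, and MSUS 8, with 4.14 estimated counts, was the lowest of all 10. Its log2 difference was +0.56 (SE 0.26, edgeR adjusted p = 0.863).

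The actins of the thin filament were higher on average in MSUS libraries, by less than the test required. Acta2 stood at 107, 123, 154, 258.1 and 158 CPM in Control 3, 5, 7, 9 and 11 and at 236, 160, 308, 121 and 334 CPM in MSUS 2, 4, 6, 8 and 14. MSUS 6 and MSUS 14 were above every Control library, Control 9 was the third highest, and MSUS 8 lay beside Control 5. The means were 160 ± 58.9 and 232 ± 91.8 CPM, a log2 difference of +0.54 (SE 0.29, edgeR adjusted p = 0.879). Actg2, the smooth muscle γ-actin typical of visceral muscle, stood at 7.39, 9.79, 18.5, 23.4 and 15.9 CPM in Control and at 20.9, 19.1, 38.1, 9.25 and 37.7 CPM in MSUS libraries. The same pair, MSUS 6 and MSUS 14, was highest, and the log2 difference was +0.73 (SE 0.35, edgeR adjusted p = 0.879). Actins share stretches of sequence: 2.86% of the windows of 25 bases of Acta2 and 2.68% of those of Actg2 occurred in another protein-coding gene, and 0 of 10 estimated counts of Acta2 were whole numbers. Their widely expressed relatives had log2 differences nearer to 0: Actb averaged 531 ± 53.6 (Control) and 537 ± 63.4 CPM (MSUS) (log2 +0.02, SE 0.16), and Actg1 averaged 266 ± 35.8 and 234 ± 26.4 (log2 −0.18, SE 0.15).

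For the actin-binding proteins and desmin, MSUS 6 and MSUS 14 were again the highest libraries. Tagln stood at 24.9, 35.2, 53.0, 77.1 and 60.4 CPM in Control and at 72.8, 60.2, 121, 45.3 and 93.4 CPM in MSUS libraries. Control 3 and 5 were the lowest and MSUS 6 and 14 the highest, with a log2 difference of +0.63 (SE 0.31, edgeR adjusted p = 0.879). Cnn1, which codes for calponin, an inhibitor of the myosin motor's cycle on actin, stood at 6.93, 7.34, 16.5, 25.6 and 18.2 CPM in Control and at 24.3, 16.3, 46.5, 10.2 and 29.95 CPM in MSUS libraries. Its range of 6.71 times between the lowest and the highest library was the widest of the 8. The log2 difference was +0.70 (SE 0.39, edgeR adjusted p = 0.879). Cnn1 shared 0 windows of 25 bases with other protein-coding genes and had whole counts in 10 of 10 libraries. Des, which codes for the intermediate filament protein desmin, stood at 14.8, 14.7, 21.6, 21.7 and 16.5 CPM in Control and at 20.1, 20.5, 33.6, 13.0 and 27.5 CPM in MSUS libraries, a log2 difference of +0.37 (SE 0.20, edgeR adjusted p = 0.879). For each of the 8 transcripts, 4 of 5 MSUS libraries lay above the Control mean. An exact two-sided permutation test on log2 CPM, which cannot go below 0.00794 with 5 against 5, gave unadjusted p-values from 0.119 (Tagln) to 0.405 (Mylk).

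**Figure D2:**
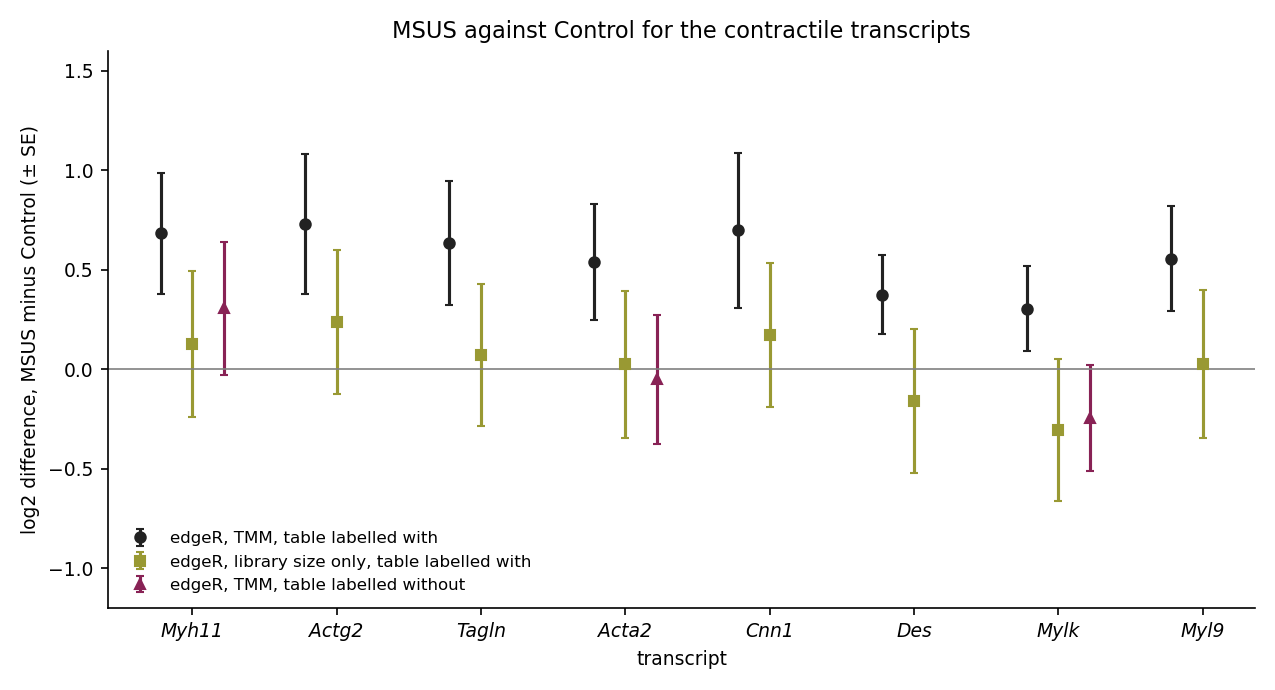
Log2 difference of MSUS minus Control (vertical axis, with SE bars) of each contractile transcript in the first table under TMM and under library size only, and of the 3 transcripts tested in the second table. The 8 differences under TMM lie between +0.30 and +0.73, while with library size only Des and Mylk lie below 0, as do Acta2 and Mylk in the second table.

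Single libraries moved these values. The median log2 difference of the 8 was +0.43 without MSUS 6 and +0.80 without Control 9. Without MSUS 6, Cnn1 was at +0.45 and Des at +0.24. At an unadjusted p under 0.05 and higher in MSUS were 7 of 8 without Control 9, beside 4.20% of all features in that fit, and 7 of 8 without MSUS 8, beside 3.09%. They were 0 of 8 without any of Control 3, Control 5, Control 11, MSUS 2, MSUS 6 or MSUS 14, beside 2.64 to 5.52% of features, and 0 of 8 were called in each of these fits. Leaving out the 3 libraries with the lowest tRNA shares gave a median of +0.90, beside +0.0065 over all features, with 6 of 8 at an unadjusted p under 0.05, beside 6.26% of features, and 0 of 8 called. The denominator mattered too: as a share of all counts the summed transcripts averaged 0.0633 ± 0.0324% in Control and 0.0644 ± 0.0401% in MSUS libraries. As a share of protein-coding counts they averaged 0.256 ± 0.077% and 0.390 ± 0.153%, beside protein-coding shares of 23.7 ± 5.02% and 15.4 ± 6.42% of all counts. The part of these shifts in composition in the differences was not tested. The groups' mean tRNA shares were 31.2 ± 11.5% and 44.5 ± 15.5%.

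The 8 transcripts varied together over the 10 libraries of the first table, Mylk least closely. Pearson correlations of log2 CPM over the 28 pairs ran from 0.494 to 0.979, with a median of 0.882, and from 0.406 to 0.977 (median 0.864) once each group's mean was removed. Pairs with Mylk were the lowest, from 0.494 (Acta2) to 0.780 (Myh11), while the lowest pair without Mylk was Tagln with Myl9 at 0.819. In the second table the pairs of the 3 tested transcripts were lower, at 0.438 (Myh11 and Mylk), 0.479 (Acta2 and Mylk) and 0.728 (Myh11 and Acta2). The values share library, depth and scaling, so these are descriptions. The mean of the 8 standardised log2 levels, called the contractile profile below, was highest in MSUS 6 (1.69 SD above the mean of the libraries) and MSUS 14 (0.92), and lowest in Control 3 (−1.37), MSUS 8 (−0.9999) and Control 5 (−0.93). It correlated at −0.32 with the tRNA share, 0.18 with the total count, 0.16 with the protein-coding share and −0.25 with the miRNA share.

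The pattern over libraries was next compared with that of other genes. Among 4026 protein-coding genes at a mean of 10 CPM or more, the median correlation with the contractile profile was −0.04, and 6 exceeded 0.9. Values given for the second table refer to a profile of the 3 transcripts tested there, so they are not the same measure. The first was Tpm2, a tropomyosin that winds along actin (0.975, and 0.225 in the second table, where it had 54.8 counts in all). Next came Tns1, a tensin of focal adhesions (0.949, 0.380 in the second table), and Cald1, which codes for caldesmon (0.937, 0.813 there). Ppp1r12a, the myosin-binding subunit of the phosphatase that opposes Mylk, correlated at 0.933 (0.669 there), and Flna, an actin cross-linker, at 0.927 (0.487 there). Tpm2 averaged 21.1 ± 7.69 (Control) and 36.4 ± 20.2 CPM (MSUS) (log2 +0.75, SE 0.34, edgeR adjusted p = 0.859), and Cald1 averaged 22.4 ± 4.70 and 37.5 ± 19.97 CPM (log2 +0.71, SE 0.28, edgeR adjusted p = 0.839). Tns1 differed by +0.58 (SE 0.25), Flna by +0.27 (SE 0.19) and Ppp1r12a by +0.18 (SE 0.13). These genes were picked for following a profile of the same libraries that was itself higher on average in MSUS. Their positive differences are therefore not separate evidence.

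**Figure D3:**
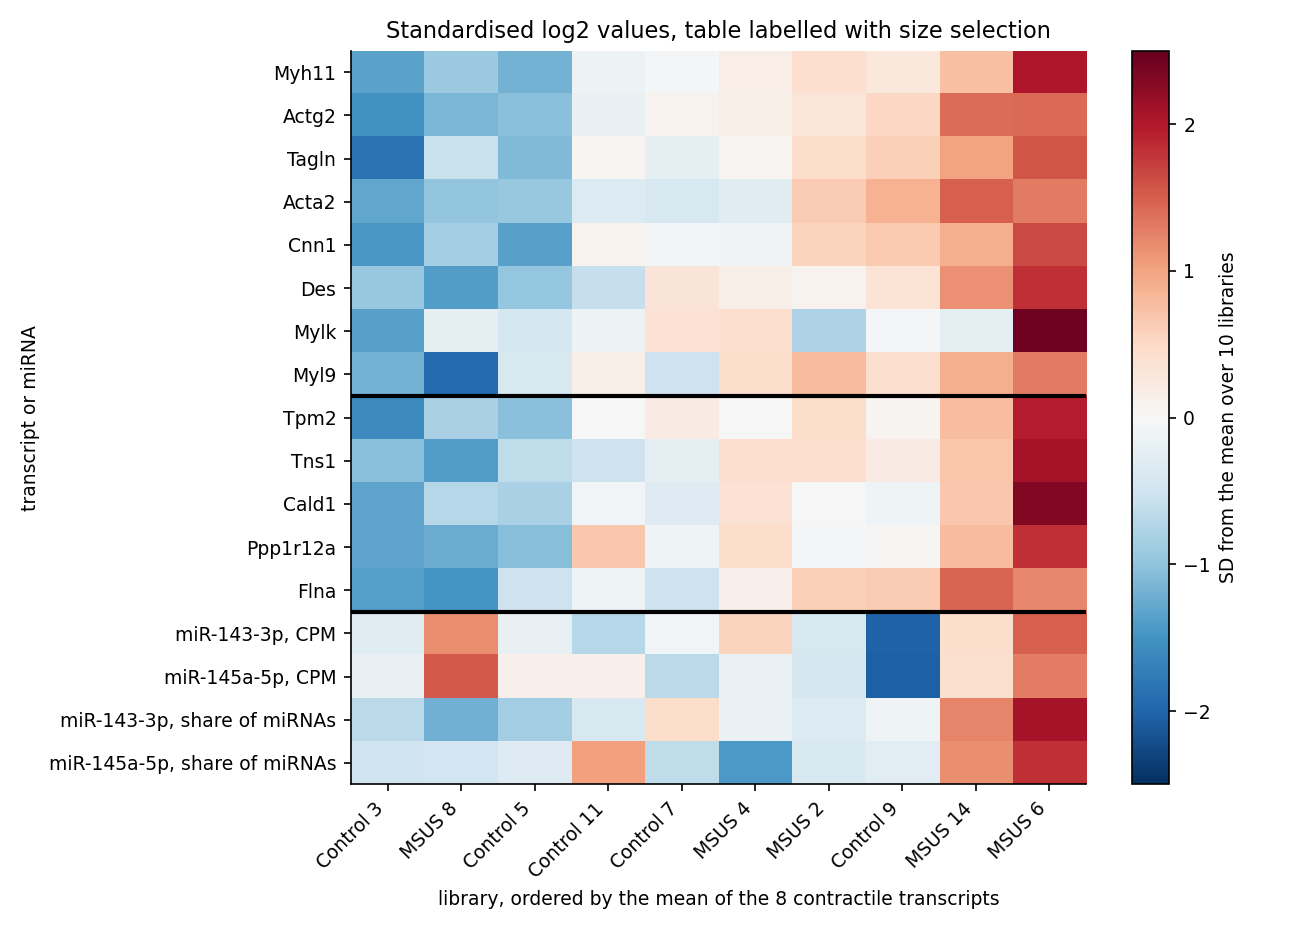
Standardised log2 level (colour, in SD from the mean over 10 libraries) of the 8 contractile transcripts, the 5 genes with the most similar pattern, and miR-143-3p and miR-145a-5p as CPM and as a share of miRNA counts, in the first table, libraries ordered by the contractile profile. Most upper rows, and the share of miR-143-3p, are blue at Control 3, Control 5 and MSUS 8 and red at MSUS 6 and MSUS 14. Mylk is an exception, at −0.23 in MSUS 14, and the share of miR-143-3p is lowest in MSUS 8. The CPM of both miRNAs are lowest in Control 9 and high in MSUS 8.

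Start regions were searched because the CArG box is the element known to join these genes, and the 2 regions that held a box are shown. RefSeq promoters (GRCm38.p6, 250 bases before to 50 after the annotated start) were found for 5 of 8 genes: Acta2, Cnn1, Des, Myl9 and Mylk. The CArG box was searched as CC, 6 bases that are each A or T, then GG, a pattern that reads alike on both strands. It was found in 1 of 5, Myl9, with its first base 161 bases before the start, and in 1.63% of all 32851 promoters. With 1 of the 6 inner bases allowed to be G or C, a form chosen after these sequences were seen, 2 of 5 held it: Acta2 with boxes 84 and 34 bases before the start and Myl9 with boxes 161 and 99 bases before it. That looser form occurs in 9.98% of all promoters, and a match says nothing of binding. The 250 bases before the start annotated for these promoters follow on the gene's strand, 5′ to 3′, with the boxes in capitals.
Acta2, chr19:34255374-34255623, minus strand: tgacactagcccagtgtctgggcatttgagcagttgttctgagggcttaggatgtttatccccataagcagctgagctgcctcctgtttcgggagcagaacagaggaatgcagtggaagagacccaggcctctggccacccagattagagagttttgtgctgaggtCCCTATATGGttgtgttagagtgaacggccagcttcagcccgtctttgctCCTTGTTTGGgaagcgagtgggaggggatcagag
Myl9, chr2:156775214-156775463, plus strand: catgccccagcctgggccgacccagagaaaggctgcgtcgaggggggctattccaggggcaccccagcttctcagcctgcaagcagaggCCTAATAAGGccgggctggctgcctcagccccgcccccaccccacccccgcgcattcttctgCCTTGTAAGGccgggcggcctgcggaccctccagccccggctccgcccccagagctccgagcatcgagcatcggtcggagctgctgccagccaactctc
Both genes had higher MSUS means in the first table, by +0.54 and +0.56 (log2), but so did all 8 transcripts. The searched genes without a box differed by +0.70 (Cnn1), +0.37 (Des) and +0.30 (Mylk). Whether the box has a part in these differences was not tested. The gene spans below come from GENCODE vM21, whose starts differ from those of the promoters. The printed stretches therefore lie partly inside the spans of Acta2 and Myl9, and the promoter searched for Mylk lies wholly inside its span. Distances of the boxes hold for the promoters' starts only. In GRCm38 the gene Acta2 spans chr19:34241090-34255590 on the minus strand and Myl9 spans chr2:156775420-156781658 on the plus strand. The others lie at chr16:14194535-14291372 (Myh11, minus), chr6:83512905-83536265 (Actg2, minus), chr9:45929619-45936058 (Tagln, minus), chr9:22099216-22109630 (Cnn1, plus), chr1:75360329-75368579 (Des, plus) and chr16:34745210-35002420 (Mylk, plus), so that the co-varying transcripts come from 6 chromosomes.

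In the second table the transcripts were read at low depth, and the 3 that could be tested did not pass. Over 10 libraries the estimated counts ran from 4.17 to 76.7 for Myh11, 5.06 to 70.5 for Acta2 and 6 to 58.8 for Mylk, but from 1 to 27 for Tagln, 0 to 11 for Cnn1, 0.317 to 13.8 for Actg2, 0.333 to 17.5 for Des and 0.333 to 8.58 for Myl9. The filter on low counts kept 3 of 8, Myh11, Acta2 and Mylk, among 1075 features. Of these 3, 0 passed edgeR's test, beside 0% of all features, and 0 of 3 had an unadjusted p under 0.05, beside 3.53% higher in MSUS among all features. A positive difference was seen in 1 of 3, beside 50.3% of features. The groups overlapped for each of the 3, and did not for 1.40% of features.

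Myh11 stood at 60.7, 39.5, 63.0, 96.0 and 59.1 CPM in Control 3, 5, 7, 9 and 11 and at 44.95, 76.6, 142, 23.8 and 86.8 CPM in MSUS 2, 4, 6, 8 and 14. MSUS 6 was again the highest and MSUS 8 the lowest of the 10, and the log2 difference was +0.30 (SE 0.34, edgeR adjusted p = 0.756), which became −0.06 without MSUS 6 and −0.04 with library size only, which moved the median of all features in this table to −0.30. Acta2 stood at 57.6, 39.5, 98.4, 87.3 and 53.3 CPM in Control and at 28.1, 42.9, 104, 41.7 and 82.3 CPM in MSUS libraries. The groups spanned almost the same range, with a log2 difference of −0.05 (SE 0.33, edgeR adjusted p = 0.963) that became +0.20 when only protein-coding features were scaled and tested. Mylk stood at 42.5, 92.1, 74.8, 73.6 and 67.2 CPM in Control and at 33.7, 67.4, 60.8, 35.7 and 77.7 CPM in MSUS libraries. Its MSUS mean was the lower one (55.1 ± 19.5 against 70.0 ± 17.96 CPM, log2 −0.25, SE 0.26, edgeR adjusted p = 0.752), and MSUS 6, far above the rest in the first table, was not high here.

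The order of the libraries carried over between the runs to differing degrees. The log2 levels of Tagln correlated at 0.876 between the tables over the 10 animals, Myh11 at 0.756, Myl9 at 0.718, Actg2 at 0.602 and Des at 0.516. Acta2 reached 0.445, Mylk 0.295 and Cnn1, with 46 counts in all in the second table, −0.02. The summed share of protein-coding counts in the second table ran from 0.151% (95% exact binomial interval 0.093 to 0.230%) in MSUS 8 to 0.440% (0.377 to 0.511%) in MSUS 6, the library that was also highest in the first. Group means were 0.241 ± 0.052% in Control and 0.275 ± 0.113% in MSUS libraries.

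**Figure D4:**
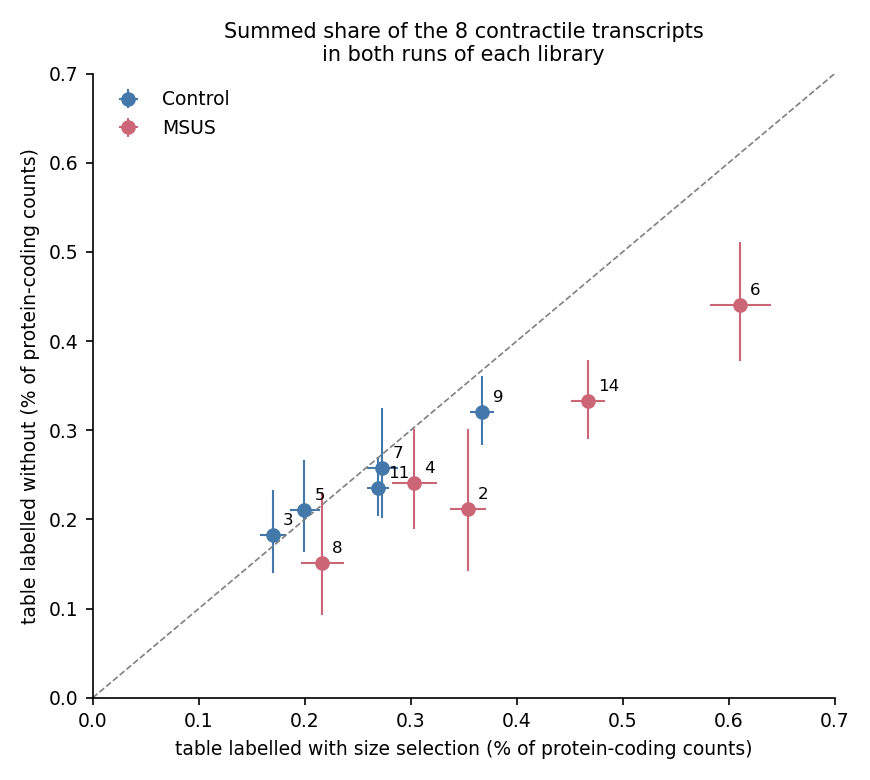
Summed share of the 8 contractile transcripts in protein-coding counts (%) in the first table (horizontal) and the second table (vertical), 1 point per animal with its number, bars giving 95% exact binomial intervals of counting error, and the dashed line marking equal shares. MSUS 6 is highest on both axes, at 0.611 and 0.440%, and most points lie under the line.

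Between the tables, Tagln and Acta2 were higher in the first. In the fit over all 20 samples, 2 of 8 transcripts passed the test in that direction, beside 18.5% of 8109 features. In either direction 2 of 8 passed, beside 34.5%. Tagln averaged 48.6 ± 21.6 CPM in the first table and 25.5 ± 14.8 CPM in the second, on 1 scaling for both tables (log2 +0.78, SE 0.28, edgeR adjusted p = 0.0326), and was higher in the first in 10 of 10 animals. Acta2 averaged 148 ± 62.7 and 81.0 ± 36.8 CPM (log2 +0.77, SE 0.24, edgeR adjusted p = 0.0124), higher in 9 of 10 animals. With animal as a block, both kept their calls at a smaller SE (Tagln +0.88, SE 0.13, edgeR adjusted p = 6.4e-06, and Acta2 +0.83, SE 0.14, edgeR adjusted p = 2.2e-05). Myh11 (log2 +0.42, SE 0.25, edgeR adjusted p = 0.208) was called in that fit too (+0.47, SE 0.12, edgeR adjusted p = 0.00228), which made 3 of 8 beside 37.2% of features. In fits without the block, both calls were lost when scaling and testing used protein-coding features alone (edgeR adjusted p = 0.117 for Tagln and 0.068 for Acta2, where 31% of features passed), and that of Tagln when any of animals 2, 6, 7 or 11 was left out. The differences of Actg2 (+0.29), Cnn1 (+0.18), Des (−0.23), Mylk (−0.10) and Myl9 (−0.12) did not pass. Library size only moved the median of all features from +0.10 to +1.04 and the share that passed to 77.5%. All 8 transcripts were positive there, between +0.80 and +1.83, with 5 of 8 above that median, and 7 of 8 passed, close to the share of all features.

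The difference of MSUS minus Control itself was not shown to differ between the tables. For this interaction, fitted within animals, 0 of 8 transcripts and 0% of 8109 features passed, with edgeR adjusted p above 0.999 for each of the 8. Acta2 had the smallest unadjusted p (0.0475), with a difference between the MSUS effects of +0.55 (SE 0.26) that moved between +0.40 and +0.76 with 1 animal left out. Actg2 was at +0.81 (SE 0.46), and at +0.47 without animal 9 or without animal 14.

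Other parts of the contractile apparatus had mostly positive log2 differences in the first table under TMM scaling, but not with library size only. Of 24 listed genes of filament binding, dense bodies and adhesion, 20 were tested in the first table, and 0 passed. Positive were 18 of 20, beside 49.8% of all features. With library size only, 7 were positive and 18 of 20 lay above the median of all features. An edgeR unadjusted p under 0.05 with a higher MSUS mean was seen for 9 of 20, beside 3.46% of all features. The list was chosen with earlier results of these data known, so these counts are descriptions. The median log2 difference of the 20 was +0.41. Flnc, a muscle filamin, averaged 6.45 ± 1.47 (Control) and 12.9 ± 6.74 CPM (MSUS) (log2 +0.97, SE 0.28, unadjusted p = 0.00387, edgeR adjusted p = 0.839), and 5 of 5 MSUS libraries exceeded the Control mean. Tpm1, a tropomyosin, averaged 28.2 ± 5.24 and 41.4 ± 11.2 CPM (log2 +0.55, SE 0.17, edgeR adjusted p = 0.839). The 2 negative ones were Vcl, the adhesion protein vinculin (−0.08, SE 0.12), and Tpm4 (−0.07, SE 0.17). The summed level of this list correlated at 0.977 with the contractile profile. In the second table, 4 of the list were tested and 0 passed. The 2 positive ones were Csrp1 (+0.10) and Flna (+0.06), while Tln1 (−0.25) and Vcl (−0.22) were negative. With library size only, 0 were positive and 2 of 4 lay above the median of all features, −0.30. With protein-coding features only, 3 were positive.

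Regulators of contraction were divided in sign. Of 24 listed genes of calcium handling, kinase signalling, the phosphatase and the transcriptional program, 14 were tested: 0 passed, 6 were positive (0 with library size only) and the median was −0.08. With library size only, 6 of 14 lay above the median of all features. Ppp1r12b, a myosin phosphatase subunit of muscle, averaged 8.61 ± 2.13 (Control) and 12.8 ± 5.68 CPM (MSUS) (log2 +0.52, SE 0.24, edgeR adjusted p = 0.860), and Ppp1r12a differed by +0.18 (SE 0.13). Rock1, a kinase that inhibits that phosphatase, averaged 39.7 ± 2.71 and 31.9 ± 5.53 CPM (log2 −0.31, SE 0.12, unadjusted p = 0.0233, edgeR adjusted p = 0.839), and 0 of 5 MSUS libraries exceeded the Control mean. Myocd, the gene for myocardin, was below the filter at 1.01 ± 0.37 and 2.11 ± 2.20 CPM. Of the 3 regulators tested in the second table, 0 passed. Among them, Itpr1, a calcium release channel, differed by +0.28 and Rhoa, a small GTPase, by −0.08 on the log2 scale. Of 8 other actins and non-muscle myosin genes, 7 were tested in the first table, with 0 passing, 5 positive (0 with library size only, where 5 of 7 lay above the median of all features) and a median of +0.03. The second table had 4 tested, 0 passed, and 0 were positive (1 with protein-coding features only), Actg1 at −0.61 (SE 0.22, edgeR adjusted p = 0.554).

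**Figure D5:**
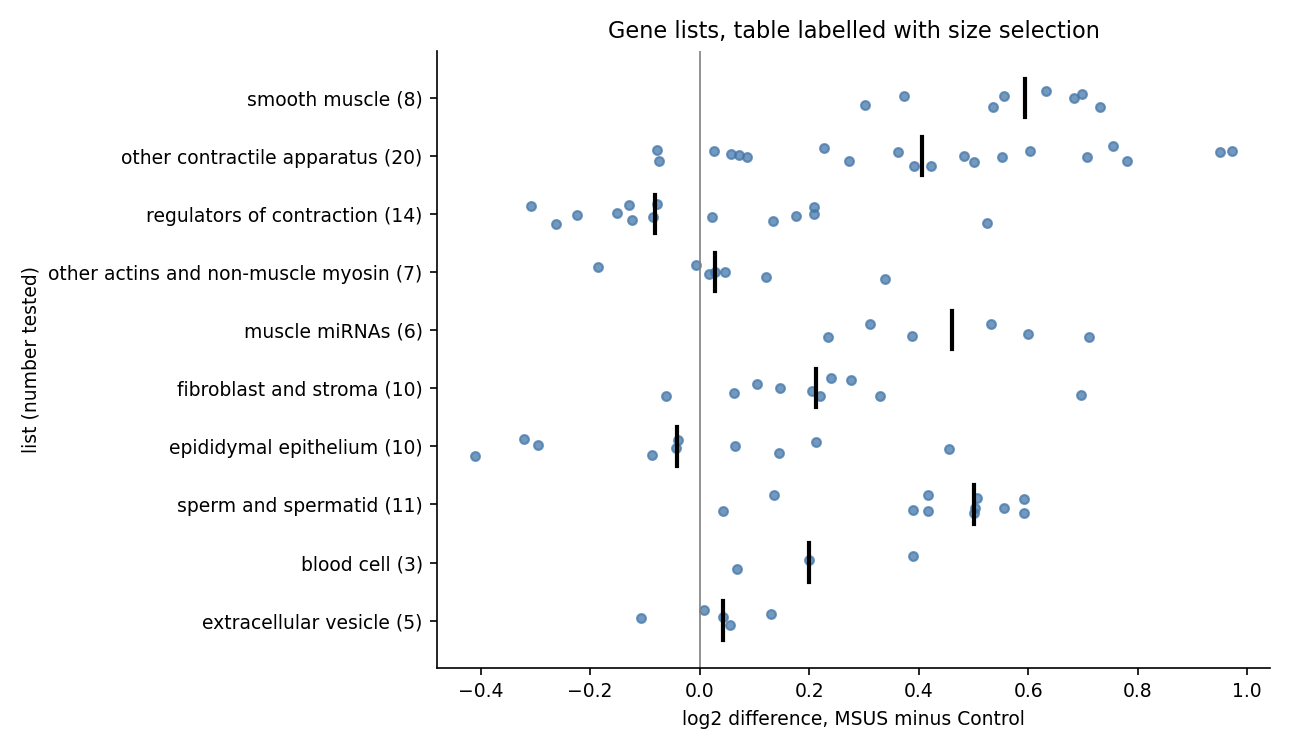
Log2 difference of MSUS minus Control (horizontal axis) of each tested gene in 10 lists of the first table, with each list's median as a bar and its number tested in parentheses. The medians of the contractile transcripts (+0.59), the sperm list (+0.50), the muscle miRNAs (+0.46) and the other contractile apparatus (+0.41) lie to the right under TMM, while with library size only these became +0.05, −0.15, −0.17 and −0.14, beside −0.58 for all features.

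Muscle miRNAs were compared because miR-143 and miR-145, made from 1 precursor transcript, are the best known miRNAs of smooth muscle, and miR-1 and miR-133 are known from striated muscle. Of 9 listed, 6 were tested in the first table, and 0 passed. The 6 were positive with a median of +0.46 (1 positive with library size only, where 6 of 6 lay above the median of all features). In the second table, 6 were tested, 0 passed, and 5 were positive with a median of +0.34. miR-143-3p averaged 11416 ± 2922 (Control) and 18674 ± 4938 CPM (MSUS) (log2 +0.71, SE 0.31, edgeR adjusted p = 0.845) and +0.57 (SE 0.21, edgeR adjusted p = 0.554) in the second table, and 5 of 5 MSUS libraries exceeded the Control mean in both. miR-145a-5p averaged 614 ± 182 and 931 ± 313 CPM (log2 +0.60, SE 0.28, edgeR adjusted p = 0.859) and +0.36 (SE 0.26, edgeR adjusted p = 0.620) in the second table.

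The link of miR-143-3p with the contractile mRNAs depended on the denominator. As CPM of all counts, miR-143-3p correlated with the contractile profile at 0.176 over the 10 libraries and at 0.217 in the second table, where the profile rests on the 3 tested transcripts. As a share of miRNA counts, a scale added after these values were seen, it correlated at 0.888 (Spearman 0.879, 0.877 within groups, and 0.844 without MSUS 6 and Control 3, the libraries farthest from the median). That share was 8.94, 8.596, 11.5, 10.2 and 9.52% in Control 3, 5, 7, 9 and 11 and 9.65, 10.0, 16.5, 7.99 and 13.6% in MSUS 2, 4, 6, 8 and 14. MSUS 6 and MSUS 14 were again the highest and MSUS 8 the lowest. The groups overlapped, at 9.74 ± 1.147% in Control and 11.5 ± 3.44% in MSUS. The share in the second table gave 0.750 (Spearman 0.891, 0.896 within groups, and 0.838 without MSUS 8 and MSUS 2). Over all 10 libraries, miR-143-3p ranked first of 266 miRNAs counted in every library of the first table and first of 230 in the other, where the median correlations were 0.003 and 0.016. In the first table that rank depended on the libraries used. Without MSUS 6 and Control 3, miR-126a-3p rose from 0.669 to 0.869, above the 0.844 of miR-143-3p. miR-145a-5p reached 0.609 and 0.510 as a share, ranking 11 and 15, and 0.011 and 0.083 as CPM. Without the same pairs of libraries its share gave 0.324 and 0.546, so that the value of the first table rests on MSUS 6 and Control 3. Both measures come from the same libraries, so these are descriptions.

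Markers of other cell types were set beside the contractile transcripts in the first table, and 0 genes of these lists passed the test. As library size only moves the median of all features to −0.58, the number above that median is given with each count. Sperm and spermatid markers, led by Smcp of the sperm tail, had 11 of 11 tested genes positive (0 with library size only, 11 above that median) with a median of +0.50, and summed levels of 278 to 441 CPM in Control and 395 to 608 CPM in MSUS libraries. Their summed level correlated at 0.024 with the contractile profile. Fibroblast and stroma markers, led by Dcn, had 9 of 10 positive (1 with library size only, 9 above that median), a median of +0.21, and summed levels of 136 to 261 and 198 to 222 CPM, with a correlation of 0.232. Epididymal epithelium markers had 4 of 10 positive (0 with library size only, 4 above that median), a median of −0.04, and a correlation of −0.42, with summed levels of 14681 to 21069 CPM in Control and 10454 to 16382 CPM in MSUS libraries. Most of that sum was Akr1b7, which averaged 15478 CPM in Control and 11649 in MSUS libraries, within summed means of 18158.5 and 14267.3. The sum and its correlation thus follow mainly that gene, and Crisp1, for one, averaged 2049 and 1995 CPM. Blood cell markers, led by Cd74, had 3 of 3 positive (0 with library size only, 3 above that median) and summed levels of 89.7 to 156 and 112 to 173 CPM, with a correlation of 0.343. Vesicle markers had 4 of 5 positive (0 with library size only, 4 above that median), a median of +0.04 and a correlation of 0.503. The part of these cell types in the differences of the contractile transcripts was not tested.

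Markers of other muscle and of vessels were low in the first table. Heart muscle markers summed to at most 1.96 CPM, with no protein-coding row for Nppa, and endothelial markers to at most 9.79 CPM, led by Kdr. Nerve markers summed to at most 4.96 CPM. Pericyte markers, led by Notch3, summed to between 10.999 and 24.8 CPM, fat markers, led by Fabp4, to between 1.96 and 20.5 CPM, and skeletal muscle markers, led by Acta1, to between 8.64 and 36.03 CPM, against 322 to 1141 CPM for the 8 contractile transcripts. In the second table, the sperm list had 4 of 4 tested genes positive, the epithelium 1 of 7 and blood cells 0 of 1. With library size only, which moved the median of all features there to −0.30, the positive genes numbered 2, 0 and 0. Above that median lay 4, 1 and 0 of them.

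Some of the 8 genes also had rows of other transcript types in the first table. The processed transcript of Myl9 took 47.8% of that gene's counts and differed by +0.44 (SE 0.31, edgeR adjusted p = 0.905). The retained intron row of Des took 17.4% and differed by +0.59 (SE 0.28, edgeR adjusted p = 0.863), and the processed transcript of Actg2 (12.6%) and the retained intron row of Mylk (3.58%) were below the filter. The labels do not tell how reads were divided between such rows, so the Myl9 level is uncertain.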

How the data were processed

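Small RNA of cauda epididymosomes was read from 10 libraries in 2 runs. Each deposited row gives 1 annotated RNA by estimated counts, often not whole, which the authors made with tools that, per the submitters' processing notes, included STAR and edgeR on GRCm38; the rule by which reads were assigned is not stated in the labels. Groups and animals come from the sample titles. Counts were rounded and tested with edgeR 4.0.16 in R 4.3.3 (filterByExpr by condition, TMM, robust quasi-likelihood test, Benjamini-Hochberg over all features tested, threshold 0.05), separately for each table. SE derive from the F statistic, log2 CPM use a prior count of 2, and CPM of unfiltered rows are relative to the same scaled totals. Exceptions to that prior count were the correlations of single transcripts between the tables and the levels of the most similar genes in the second table. These used the log2 of CPM plus 1. The fit between tables used all 20 samples with condition as a covariate, and the interaction had animal as a block. Same-numbered samples come from the same animal, per the labels: deviations of 1074 features correlated at 0.366 to 0.763 within an animal, at most 0.555 between animals, and 9 of 10 animals matched themselves best. DESeq2 1.42.0, voom in limma 3.58.1, other scalings and left-out libraries were alternatives. Scripts were tested on simulated data.

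All 8 members are named throughout. From the other contractile and regulator lists, the 2 tested genes with the smallest p per direction are named, with the leading gene of each marker list, the 5 genes nearest to the contractile profile, miR-143-3p, miR-145a-5p, Actb and Actg1. Myocd was named after its values were seen. The members and lists were chosen with earlier results of these data known. Levels per kb used exon lengths from GENCODE vM21. A gene that the rule for named genes selected is not reported here.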

Additional observations from a re-analysis of the deposited data

Results flagged for a closer look

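Mylk in MSUS 6 stood at 194 CPM in the table labelled with size selection, far from the other 4 MSUS libraries: its gap to the nearest of them was 0.722 of the group's whole range, above the limit of 0.71 for 5 samples. In all, 22 groups of 5 were examined in this way, and chance flags about 1 in 20. In the table labelled without, the same library was at 60.8 CPM, inside the range of its group.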

How the results depend on the processing

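With size selection on the label, 0 features were called, and 0 to 2 when 1 library was left out, the 2 without Control 3. Library size only gave 3 calls and no filter on low counts 48, none of them a contractile transcript. DESeq2 gave 33 and an adjusted p for 3 of 8 transcripts only, Myh11 (0.168), Acta2 (0.278) and Mylk (0.413). Positive differences numbered 8 of 8 in these fits except with library size only, where 6 remained and Des (−0.16) and Mylk (−0.31) reversed. In the table labelled without, 0 features were called, 1 with library size only and 2 without the 3 libraries of low tRNA share. There the positive transcripts, 1 of 3, became 0 with library size only (Myh11 −0.039), 2 with protein-coding features only (Acta2 +0.20), and 0 to 2 with 1 library left out. Over those, Myh11 ran from −0.055 to +0.52 and Acta2 from −0.34 to +0.086, being positive without Control 7 (+0.060), Control 9 (+0.086), MSUS 2 (+0.063), MSUS 4 (+0.038) or MSUS 8 (+0.027). Between tables, 2801 calls became 6287 with library size only, where 8 transcripts were positive (Des +0.80, Mylk +0.84, Myl9 +0.83), 1318 with protein-coding features only, and 2409 to 2866 with 1 animal left out, where Myl9 ran from −0.20 to +0.032 (without animal 9). The replicate block by animal gave 3020 calls and added Myh11 (adjusted p = 0.00228); it changed no other transcript's call. For the interaction, 0 calls were made under every alternative run; with 1 animal left out, Tagln ran from −0.36 to +0.046 (without 14) and Myl9 from −0.20 (without 9) to +0.36. The cause of these changes was not tested. The share of miRNA counts and the looser CArG box were chosen after seeing the data. In the table labelled without, 5 of 8 transcripts fell below the filter on low counts.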
